A study of Homo sapiens with 6 samples.

Results

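Standard growth was described here by 4 of the 6 libraries of a paired-guide CRISPR knockout screen in human cells, namely 2 replicates of day 14 set against 2 replicates of day 0. They were chosen by their sample titles alone. The day 14 cells had gone through 12 population doublings without irradiation. The cells were eHAP iCas9-cl#6, a p53 null clone with doxycycline-inducible Cas9 on the background of eHAP, which was engineered from HAP1, a near-haploid line of leukemic origin. All libraries came from this 1 clone, transduced at a multiplicity of infection of 0.15, and doxycycline was given for the first 7 days of the culture. The other 2 libraries were irradiated cells of the same clone, collected at day 15 after 10 doublings with 0.6 Gy of X-rays after each split. Constructs carried 2 guide RNAs each, and reads of a construct track how common its cells were. The tables held 863546 guide pairs from 1826 guides of 459 genes and 61 non-targeting guides. A gene's guides sg1 and sg2 always occupied position 1 of a construct and sg3 and sg4 position 2, with a median of 930 partners per guide.

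In a growth screen, cells that lose a gene they need divide more slowly or die, and the guides against that gene take a smaller share of the reads as the culture is passaged. The library covers the DNA damage response, a set of pathways that copy DNA, sense damage and repair each kind of lesion. Many of these genes are dispensable in unstressed culture, whereas the replication machinery, the ATR checkpoint kinase and much of homologous recombination are needed by most dividing cells. Gene symbols are written here as the tables give them, in mouse style although the cells are human.

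The libraries held 61185707 to 86587125 reads, and they stood apart in 2 ways that touch the results. Day 14 replicate 1 lacked 54.1% of the guide pairs, against 5.62% in day 14 replicate 2 and 1.93% to 4.72% at day 0. In day 0 replicate 1, 264 of 927 guides at position 2 lay more than 0.4 on the log2 scale below day 0 replicate 2, with a median of -0.72, while the remaining guides there had a median of 0.12. The SD of the log2 difference between the day 0 replicates was 0.067 over guides at position 1 and 0.381 over guides at position 2. A fitted change pools both day 0 libraries. Values against a single day 0 library, or without day 0 replicate 1, are given where this is stated.

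The first question was which guide pairs were still detected after 14 days, and the 2 replicates gave different answers. Of 643703 guide pairs with at least 20 reads in both day 0 libraries, 45.2% were missing from day 14 replicate 1 and 0.455% from day 14 replicate 2, and 0.384% from both. In replicate 2, the share without reads was confined to pairs that had been rare at day 0. It was 14.4% among pairs whose lower day 0 count was 1 to 19, 1.31% at 20 to 49 reads, 0.0366% at 50 to 99 reads, and 0 of 220856 pairs at 100 reads or more, which allows a share of up to 0.00136% from counting error alone. In replicate 1, the corresponding shares were 78.4%, 65.2% and 48.4%, and 9.39% of pairs with 200 reads or more at day 0 still had no reads. Irradiated replicate 2 lacked 40.5% of the same 643703 pairs, and 193299 pairs were missing from both libraries, 66.4% of those missing in day 14 replicate 1 and 74.2% of those missing in irradiated replicate 2. Among pairs with at least 100 reads at day 0, irradiated replicate 2 lacked 18.5% of all pairs and 44.4% of those missing in day 14 replicate 1, and at 200 reads or more these shares were 6.86% and 26.3%.

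Among the genes, the share of well-covered pairs lost in replicate 2 ran from 0.0283% to 1.81%, with a median of 0.446%. The 5 highest shares belonged to Meioc (1.81%), a meiotic factor, H2afx (1.80%), the histone variant phosphorylated at DNA breaks, Fgf10 (1.79%), a growth factor, Nudt16l1 (1.75%), a regulator of 53BP1, and Mgmt (1.63%), which removes alkyl groups from guanine. The 5 lowest belonged to Hdac10 (0.0283%), a deacetylase, Nthl1 (0.0296%), a glycosylase for oxidised bases, Ddb2 (0.0307%), the sensor of ultraviolet lesions, Radx (0.0377%), a single-strand DNA binding protein of the fork, and Poll (0.0585%), an end-joining polymerase. The order followed the depth at day 0. Over the 459 genes, the lost share and the median day 0 count of a gene's pairs correlated with r = -0.92 in replicate 1 and -0.64 in replicate 2, where both quantities come from the same pairs. Meioc, H2afx, Fgf10, Nudt16l1 and Mgmt had median day 0 counts of 43 to 49.5 reads per pair. For Hdac10, Nthl1, Ddb2, Radx and Poll these were 113.5 to 168.5 reads. Fen1 stood at 0.707% and Rnf111 at 0.256%, and replication and checkpoint genes did not head the list.

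The second question was which guides, summed over all their partners, were lower or higher at day 14. In edgeR's quasi-likelihood test over all 6 libraries, 0 of 1849 guides passed an adjusted p of 0.05 (0%), and 79 had an unadjusted p below 0.05, where 92.45 would be expected if nothing differed. DESeq2 on the same sums called 24 guides (1.30%), 20 lower and 4 higher. A smaller set of guides stood apart by size: 22 of 1849 (1.19%) were lower by at least 0.2 in all 4 comparisons of a day 14 with a day 0 library, and 1 (0.0541%) was higher. The step of 0.2 on the log2 scale, a factor of 1.15, was chosen after the values were seen, and of the 22 guides 18 were among the 24 that DESeq2 called. None of the 61 non-targeting guides was among them, although 13 of the 61 were lower in all 4 comparisons by some amount, 21.3% against 21.5% of all guides. Against day 0 replicate 2, the lowest non-targeting guide was at -0.60 in day 14 replicate 1 and at -0.25 in day 14 replicate 2.

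At position 2, 9 guides were lower in all 4 comparisons by at least 0.2, and 4 of them targeted the replication machinery. These were the only ones among the 104 guides of the core replication list at either position, 3.85% against 1.23% of all guides of genes. The step and the list were chosen with values of these data known. By any amount, 19.2% of the 104 were lower and 20.2% higher in all 4, against 21.5% and 19.6% of all guides of genes. With scaling on non-targeting constructs, Fen1_sg3 stayed beyond 0.2 in all 4 comparisons, and Rpa2_sg3, Gins2_sg3 and Pola1_sg3 in 3. Levels are given as scaled CPM, reads divided by the TMM-scaled library size, for guides within their position. Fen1_sg3, a guide against the flap endonuclease that trims Okazaki fragments, had 980.4 and 1068 scaled CPM at day 0 and 595 and 660.5 at day 14. Both day 14 values lay below both day 0 values, which the choice of these guides fixes. Of all 1849 guides, 397 (21.5%) were lower in all 4 comparisons by some amount. For Fen1_sg3 the gap was wider than the spread within either group. The 4 comparisons gave -0.72, -0.84, -0.57 and -0.69, and the fitted log2 change was -0.71 (SE 0.09, 95% interval -0.94 to -0.47). Its adjusted p in edgeR's test was 0.303, and it was 5.67e-08 in DESeq2's.

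Rpa2_sg3, against a subunit of the single-strand DNA binding protein RPA, had 309.6 and 308.9 scaled CPM at day 0 and 239.6 and 213 at day 14. Gins2_sg3, against a subunit of the replicative helicase, had 1036 and 874 at day 0 and 709 and 699 at day 14. Pola1_sg3, against polymerase alpha, which extends the first primers of a new strand, had 3590 and 3055 at day 0 and 2550.1 and 2599 at day 14. In none of the 3 did the groups overlap, which their choice fixes. The fitted changes were -0.45, -0.44 and -0.37, with adjusted p-values of 0.646 in edgeR's test. For Gins2_sg3 and Pola1_sg3 the day 0 replicates themselves differed by about as much as replicate 2 differed from day 14.

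The other 5 guides at position 2 came from several functions. Primpol_sg3, against the primase that restarts stalled forks, had 1433 and 1524 scaled CPM at day 0 and 928 and 1126 at day 14, a fitted change of -0.53 (SE 0.10). Uchl5_sg3, against a deubiquitinase of the proteasome and the INO80 complex, stood at -0.46, and Abl1_sg3, against a tyrosine kinase, at -0.39. Both position 2 guides of Polr2i, a subunit of RNA polymerase II, were in this set, Polr2i_sg4 at -0.44 and Polr2i_sg3 at -0.34. It was the only gene with more than 1 guide beyond 0.2 in all 4 comparisons. With scaling on non-targeting constructs, each of these 2 guides stayed beyond 0.2 in 3. Its position 1 guides, Polr2i_sg1 and Polr2i_sg2, had means of 0.02 and -0.10 over both day 14 libraries against day 0 replicate 2.

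At position 1, 13 guides were in this set. Rnf111_sg1, against a ubiquitin ligase that acts on proteins carrying SUMO, had 2498 and 2423 scaled CPM at day 0 and 1593 and 1711 at day 14, from 98207 reads in day 14 replicate 1. The groups were far apart compared with the difference inside each pair of replicates. Its fitted change was -0.58 (SE 0.05, 95% interval -0.71 to -0.44), with an adjusted p of 0.148 in edgeR's test, the smallest of all guides. Sfpq_sg1, against an RNA-binding protein of paraspeckles, had 2038 and 2169 at day 0 and 1565 and 1631 at day 14 (fitted change -0.40, SE 0.05). Atr_sg2, against the kinase that answers replication stress, had 326.7 and 301 at day 0 and 189.9 and 209 at day 14 (fitted change -0.65, SE 0.11). Psme4_sg2, against a proteasome activator, had 883 and 872 at day 0 and 691 and 696 at day 14 (fitted change -0.34, SE 0.06). In all of these the day 14 values lay below both day 0 values, which the choice of these guides fixes. Taken as medians over partners in place of sums, the changes were -0.03 for Rnf111_sg1 and for Sfpq_sg1, and at position 2 they were -0.13 for Primpol_sg3 and -0.02 for Pola1_sg3. Those medians used both day 14 libraries and took pairs without reads as 0. In day 14 replicate 2 against day 0 replicate 2, the median change of well-covered pairs was -0.47 for Rnf111_sg1 and -0.40 for Sfpq_sg1. It was -0.46 for Primpol_sg3 and -0.19 for Pola1_sg3. Why medians and sums differed was not tested.

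The remaining 9 guides at position 1 had fitted changes from -0.39 to -0.22. They targeted the cohesin regulator Pds5b (-0.39) and the cohesin subunit Smc1a (-0.35), and the ubiquitin-conjugating enzyme Ube2b (-0.37) and the ubiquitin ligase Huwe1 (-0.30). The others were against Ppp4r2 (-0.37), a phosphatase subunit, Fancg (-0.35), a member of the Fanconi anemia core complex, Kdm2a (-0.25), a histone demethylase, Alkbh3 (-0.25), which repairs alkylated bases, and Topbp1 (-0.22), the activator of ATR. Mutyh_sg1, against a glycosylase for adenine opposite oxidised guanine, was the single guide higher by at least 0.2 in all 4, at 1030.1 and 899 scaled CPM at day 0 and 1252 and 1189 at day 14. Its fitted change was 0.34, and it was 0.14 once the 41 guide pairs with more than 5000 reads in a library were left out, since 1 pair, with Rfwd3_sg4, held 31108 of its 77181 reads in day 14 replicate 1.

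The number of calls differed between tests and libraries. When each position was fitted on its own, an alternative chosen after seeing the data, edgeR called 2 guides (0.108%), Rnf111_sg1 (adjusted p = 0.00459) and Sfpq_sg1 (adjusted p = 0.0358). When day 0 replicate 1 was also left out, it called 3 (0.162%), namely Fen1_sg3 (-0.77, 95% interval -0.999 to -0.54, adjusted p = 7.49e-05), Primpol_sg3 (-0.57) and Rnf111_sg1 (-0.55, adjusted p = 0.0206). Without day 0 replicate 2 the count rose to 337, and without either day 14 library it was 1, Rnf111_sg1 in both cases. The step of 0.2 depended on the scaling too: with libraries scaled on constructs of non-targeting guides, which moved the median guide of day 14 replicate 1 up by 0.13 to 0.19, 9 guides were lower in all 4 and 0 higher. Among the 9 were Atr_sg2, Rnf111_sg1, Sfpq_sg1, Ppp4r2_sg2 and Smc1a_sg2 at position 1 and Fen1_sg3, Primpol_sg3 and Uchl5_sg3 at position 2.

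Other guides of the same genes were mostly near 0. The 22 guides came from 21 genes, which had 60 further guides. Of these, 23 were below 0 in both day 14 libraries against day 0 replicate 2, 38.3% against 31.7% of all guides of genes, and 2 were at or below -0.2 in both. Their median was -0.002. The other guides of Fen1 had means of 0.03, -0.03 and 0.00 over both day 14 libraries, where Fen1_sg3 had -0.77. For Rnf111 they were -0.10, -0.01 and 0.01, and for Atr -0.18, 0.02 and -0.10. The 2 at or below -0.2 in both were Sfpq_sg4, at -0.34 and -0.21 in the day 14 replicates, and Primpol_sg1, at -0.31 and -0.21.

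Across all genes, 2 guides of 1 gene were weakly related at most. The correlation of their mean changes against day 0 replicate 2 was 0.138 between guides 1 and 2 (439 genes) and -0.006 to 0.062 for the other 5 combinations, whose guides share the day 0 library. Between replicates that share no library, the changes of all guides correlated with r = 0.392 and 0.233 at position 1 and 0.20 and 0.19 at position 2. These are descriptions across guides, which are not independent replicates.

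Among the partners of the 22 lower guides, the day 14 replicates differed. In day 14 replicate 2, the median guide had 50.7% of its well-covered pairs below the library's median change, with 5th and 95th percentiles of 42.7% and 60.5%. Fen1_sg3 had 85.1% of 801 pairs below it, Rnf111_sg1 84.4% of 899, and Sfpq_sg1 78.0% of 883, and all 22 had between 61.3% and 85.1%. In day 14 replicate 1, over pairs with reads there, the share was 39.3% to 67.0%, with 7 of the 22 guides under 50%, among them Atr_sg2 (44.6%), Fancg_sg2 (39.3%) and Abl1_sg3 (42.3%). The median of all guides in that library was 49.2%. The 22 guides were chosen as low on sums from the same libraries, which partly fixes their shares. These pairs share the guide and are not replicates. In day 14 replicate 2, Mutyh_sg1 had 51.5% of its pairs below the library's median change, with a median pair change of -0.05.

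Strong changes of single pairs were rare in the more complete replicate. Of 220856 pairs with at least 100 reads in both day 0 libraries, 1703 (0.771%) were at least 2-fold below both day 0 libraries in day 14 replicate 2, and 273 (0.124%) were at least 2-fold above both. In replicate 1 the corresponding counts were 106174 (48.1%) and 25612 (11.6%). Pairs with 1 of the 22 lower guides made up 2.74% of the 220856 and 10.0% of the 1703, a share that the choice of these guides partly fixes. Fen1_sg3 had the most, with 28 of its 239 such pairs. At 4-fold, 1 pair was lower in all 4 comparisons, Topbp1_sg1 with Fen1_sg3, which had 143 and 181 reads at day 0 and 0 and 1 at day 14.

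Some pairs took a large share of a day 14 library. Mutyh_sg1 with Rfwd3_sg4 was the most abundant pair in both day 14 libraries, at 502 and 495 CPM, and had been abundant at day 0, at 379 and 246. Cul4b_sg1 with Xab2_sg3 came next, at 291 and 396 against 334 and 229 at day 0. Both pairs were scarce in the irradiated libraries, which held 10 and 2 reads of the first and 299 and 87 of the second. The next 3 pairs of replicate 1 were high in it alone among the 4 libraries. Sirt1_sg1 with Bivm_sg3 had 157 and 126 reads at day 0, 15347 in day 14 replicate 1 and 176 in replicate 2, Smc2_sg2 with Pif1_sg3 had 11571 against 155, and Pclaf_sg1 with Trex1_sg4 had 9628 against 204. All 3 were also high in irradiated replicate 2, at 16572, 42278 and 14611 reads.

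In all, 150 pairs were at least 16-fold above both day 0 libraries in day 14 replicate 1, and 24 of them were so in irradiated replicate 2 as well. There were 0 such pairs in day 14 replicate 2. The next 3 pairs of replicate 2 were smaller and had been present at day 0. Ssrp1_sg2 with nt_58 had 345 and 2238 reads at day 0 and 3812 in replicate 2, Mus81_sg1 with Shprh_sg3 had 381, 1107 and 3036, and Usp10_sg2 with Nucks1_sg4 had 397, 1478 and 2801. All 3 had fewer reads in day 0 replicate 1 than in day 0 replicate 2.

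The irradiated libraries offered a further set of cells from the same clone that had grown for about as long. At position 2, all 9 lower guides were at or below -0.2 in both irradiated libraries against day 0 replicate 2, with a median of -0.46. At position 1, 0 of 13 were, and their median was 0.01. Of all 922 guides at position 1, 1 was lower by at least 0.3 in irradiated replicate 1 and 14 in irradiated replicate 2. At position 2 these counts were 19 and 40 of 927. Day 14 replicates 1 and 2 had 31 and 12 such guides at position 1, and 28 and 8 at position 2. Low guides were thus few among all position 1 guides in irradiated replicate 1. Fen1_sg3 stood at -0.87 and -1.02 in the irradiated libraries, beside -0.84 and -0.69 at day 14, and Rnf111_sg1 stood at 0.04 and 0.00 beside -0.61 and -0.50. Both sets of values share day 0 replicate 2.

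The direct comparison of day 14 with irradiated day 15, in edgeR with each position fitted on its own, called 10 of 1849 guides (0.541%), and 7 of them were among the 13 lower guides of position 1. These were Atr_sg2, Rnf111_sg1, Sfpq_sg1, Pds5b_sg1, Ppp4r2_sg2, Psme4_sg2 and Huwe1_sg1. Rnf111_sg1 differed by -0.57 (95% interval -0.69 to -0.46, adjusted p = 0.0015). Without irradiated replicate 2, 0 of the 7 were called, with adjusted p-values in edgeR from 0.0565 (Rnf111_sg1) to 0.391. The difference of Fen1_sg3 was 0.18 with an interval of -0.10 to 0.46. The 13 guides had been chosen on the same day 14 libraries, and the count of calls was 6 without day 14 replicate 1, 1 without irradiated replicate 2 and 0 when both positions were fitted together. Differences of replicate 1 from replicate 2 correlated at -0.54 and -0.62 between day 14 and irradiated libraries, over guides of positions 1 and 2. The test took these libraries as independent. Irradiation, the day and the separate deposited table of these libraries cannot be told apart here.

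The third question was which genes, summed over all guides and partners (a median of 3712 pairs per gene), were lower or higher. In edgeR's test 0 of 459 genes passed (0%), 18 had an unadjusted p below 0.05, and DESeq2 called 2 (0.436%), Rnf111 and Pola1. Without day 0 replicate 2 edgeR called 168 genes, and 0 without any 1 of the other 3 libraries. Rnf111 had 2668 and 2623 scaled CPM at day 0 and 2139 and 2213 at day 14, a fitted change of -0.28 (95% interval -0.39 to -0.18, adjusted p = 0.315 in edgeR). Pola1 had 2817 and 2529 at day 0 and 2192 and 2259 at day 14, at -0.26. Sfpq had 2143 and 2229 at day 0 and 1797 and 1929 at day 14, at -0.23. In these 3 genes the groups did not overlap, as in the 20.3% of all genes that were lower in all 4 comparisons. Their position 1 or position 2 guides named above carried most of the difference. Rnf111 was at -0.38 from position 1 guides and -0.08 from position 2 guides, whereas Pola1 was at -0.07 and -0.36.

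The next lowest genes were Mms22l (-0.19), which acts in recombination at stalled forks, Ino80 (-0.19), the remodeller's ATPase, and Hus1 (-0.18), part of the 9-1-1 clamp. They were lower in all 4 comparisons, as were 20.3% of all genes. Leaving out day 0 replicate 1 gave -0.14 for Mms22l and Hus1 and -0.10 for Ino80. Primpol, at -0.15, and Rnf138, a ubiquitin ligase of break resection, at -0.14, completed the 5 of smallest p. From position 1 guides alone, edgeR called 2 of 458 genes, Rnf111 (-0.38) and Huwe1 (-0.30). For Huwe1 this rested on 1 measured guide, Huwe1_sg1. Its gene sum was at 0.12, and at -0.09 without day 0 replicate 1, and Huwe1_sg3 and Huwe1_sg4 had means of -0.01 and 0.04 against day 0 replicate 2.

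The highest genes were Nudt1 (0.32), which clears oxidised nucleotides, Ube2v1 (0.31) and Ube2v2 (0.26), partners of a ubiquitin-conjugating enzyme, Mutyh (0.28), Wrap53 (0.27), a telomerase factor, and Ung (0.26), the uracil glycosylase. They rested on day 0 replicate 1. Ung had 2513 and 3580.5 scaled CPM at day 0 and 3621 and 3654 at day 14, and Nudt1 had 1684 and 2401 at day 0 and 2680 and 2409 at day 14. In both genes the first day 0 replicate was the low library and the second lay near the day 14 values. Without day 0 replicate 1 the 6 changes were 0.02 for Ung, 0.06 for Wrap53, 0.09 for Nudt1 and Ube2v2, 0.11 for Mutyh and 0.12 for Ube2v1.

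Genes from a fixed set for replication and repair were read from the same sums. Of all 459 genes, 20.3% were lower and 20.5% higher in all 4 comparisons. Pola1 and Brca1 (-0.14) were lower in all 4, as were Fen1 (-0.10), Atr (-0.07), Lig4 (-0.11) and Rpa1 (-0.02). Chek1 (-0.01), the kinase downstream of ATR, Atm (-0.004) and Brca2 (0.01) had mixed signs. Parp1 (0.06) was higher in all 4, as were Pcna (0.24), Xrcc6 (0.24) and Trp53 (0.22), whose changes without day 0 replicate 1 were 0.03, 0.04 and 0.03. In the same fit Brca1 was at -0.08 and Lig4 at -0.03. None of these genes passed edgeR's test.

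Gene lists by function gave medians near that of all genes once day 0 replicate 1 was set aside. Over all 459 genes the median was 0.01 in the fit, and 93 genes (20.3%) were lower and 94 (20.5%) higher in all 4 comparisons. Of 27 core replication genes, 8 were lower in all 4 and 7 higher, with a median of -0.02 and 0 calls. Gins2 was at -0.14, and Dna2, a nuclease and helicase, was at 0.20. Without day 0 replicate 1, Gins2 was at -0.08 and Dna2 at 0.12. Of 13 genes of the ATR and 9-1-1 checkpoint, 3 were lower and 3 higher (median 0.02), and Topbp1 was at -0.07. Of 69 genes taken as required for growth, 20 were lower in all 4 (29.0%) and 12 higher. Of their 268 guides, 8 were lower by at least 0.2 in all 4, 2.99% against 1.23% of all guides of genes. Of the 59 guides of 15 germline and tissue-restricted genes 0 were, too few guides to tell this from 1.23%. The step and the lists were chosen with values of these data known.

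Among break repair genes, the 34 of homologous recombination had a median of -0.01, with 10 lower and 7 higher in all 4, and the 16 of end joining had -0.02, with 6 and 4. The 7 genes of the MRE11 complex and its kinases had -0.03, with 1 and 0, the 12 of alternative end joining -0.04, with 3 and 2, and the 11 of 53BP1 and shieldin -0.02, with 3 and 0. The members of smallest p included Swsap1 (0.16), a homologous recombination factor, Palb2 (-0.12), the BRCA2 partner, and Tdp2 (0.17), which removes trapped topoisomerase. Setting day 0 replicate 1 aside gave 0.09, -0.06 and 0.03 for these genes. Without day 0 replicate 1 the medians were 0.03 for the MRE11 complex and its kinases, 0.002 for alternative end joining and 0.005 for end joining. The median of homologous recombination was then 0.0005, so that all of these changed sign. That of 53BP1 and shieldin was -0.008. None of these genes passed the test.

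The medians of the Fanconi anemia, cohesin and excision repair genes lay away from 0 against day 0 replicate 1 and near 0 against day 0 replicate 2. Of 24 Fanconi genes, 11 were lower in all 4 (45.8%), against 20.3% of all 459 genes. Their medians were -0.14 and -0.10 for the day 14 replicates against day 0 replicate 1, and -0.02 for both against day 0 replicate 2. Against day 0 replicate 2, 15 of the 24 were lower in each day 14 library, beside 222 and 225 of all 459 genes. Usp1, which removes ubiquitin from FANCD2, was at -0.15, and at -0.17 without day 0 replicate 1. Of 16 genes of SMC5/6 and cohesin, 7 were lower in all 4 (43.8%), with medians of -0.09 and -0.05 against replicate 1 and -0.01 for both against replicate 2. Smc1a was at -0.17 and Nsmce4a, an SMC5/6 subunit, at 0.10. Setting day 0 replicate 1 aside gave -0.10 for Smc1a and 0.10 for Nsmce4a. The 25 genes of nucleotide excision repair stood at 0.33 and 0.29 against day 0 replicate 1 and at 0.02 and 0.01 against replicate 2. The 30 of base excision repair stood at 0.25 and 0.23, then 0.01 and 0.01, and the 11 of mismatch repair at 0.24 and 0.16, then 0.02 and -0.01. Members of smallest p in these lists, such as Rad23b (0.20) and Xpc (0.21), which recognise lesions for nucleotide excision repair, Neil3 (0.22) and Nthl1 (0.18), both glycosylases, and Msh3 (0.15) and Msh5 (0.19), both MutS homologues, were within 0.08 of 0 without day 0 replicate 1. What set that library apart was not tested.

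The remaining lists were translesion synthesis, nucleases and helicases, chromatin remodelling, germline genes, the p53 pathway and R-loop genes. The 20 genes of translesion synthesis had a median of 0.00, with 5 lower and 5 higher in all 4, the 22 nucleases and helicases -0.01, with 4 and 5, and the 20 chromatin remodelling genes -0.02, with 5 and 3, and 0.02 without day 0 replicate 1. Mcrs1, an INO80 subunit, was at 0.21, and at 0.08 without day 0 replicate 1. The 15 germline genes had a median of 0.09 in the fit, and of -0.02 without day 0 replicate 1. They stood at 0.16 and 0.17 against day 0 replicate 1 and at -0.03 and -0.01 against replicate 2. Examples were Dmc1 (0.14), the meiotic recombinase, and Sycp3 (0.17), a component of the synaptonemal complex. Over all settings, values ran from 0.03 to 0.38 for Dmc1 and from -0.02 to 0.43 for Sycp3. The p53 pathway held 3 measured genes, in cells that lack p53, and 0 were lower in all 4. In the list of ribonuclease H and R-loop genes, Rnaseh2a, a ribonuclease H2 subunit, was at 0.14, and at 0.00 without day 0 replicate 1.

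The last question was what the constructs with a non-targeting partner, a median of 121 per gene, showed of single knockouts. In edgeR's test 0 of 459 genes passed (0%), 18 had an unadjusted p below 0.05, and DESeq2 called 0 (0%). Without day 14 replicate 2 edgeR called 21 genes, 16 of them higher, and 0 without any 1 of the other 3 libraries. The median 95% half-width was 0.40 on the log2 scale. The day 14 replicates differed in spread over all genes. Against day 0 replicate 2, the SD was 0.354 in replicate 1 and 0.091 in replicate 2. The 69 genes taken as required for growth had medians of 0.10 and 0.12 in replicate 1, against 0.13 for all genes. In replicate 2 their medians were -0.07 and -0.005 against day 0 replicates 1 and 2, where all genes had -0.01 and 0.00. Chek1, Sfpq, Pola1, Rnf111, Fen1 and Atr, given next, were picked after their values were seen. Single knockouts of Chek1 had 8809 and 8463 reads at day 0, 2457 in day 14 replicate 1 and 6094 in replicate 2. After scaling they stood at -1.23 and -1.10 in replicate 1 and at -0.09 and 0.03 in replicate 2, against day 0 replicates 1 and 2. The fitted change was -0.49 (95% interval -1.07 to 0.10), and it was -0.03 without day 14 replicate 1.

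Single knockouts of Sfpq were at -0.79 and -0.95 in replicate 1 and at -0.11 and -0.27 in replicate 2, below 0 in both. Those of Pola1 were at -0.81 and -0.60 in replicate 1 and at -0.34 and -0.13 in replicate 2, also below 0 in both. Rnf111 was at 0.33 and 0.37 in replicate 1 but at -0.39 and -0.35 in replicate 2, so that its groups overlapped. Fen1 (-0.17) and Atr (-0.13) were below 0 in all 4, with intervals that reached above 0.

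The 5 single knockouts of smallest p were all higher at day 14, most so in replicate 1. Nfrkb, an INO80 subunit, was at 1.24 and 0.84 in replicate 1 and at 0.41 and 0.01 in replicate 2. Cetn1, a centrin, was at 0.94 and 0.73, then 0.34 and 0.13, and Xrcc6, the smaller Ku subunit, at 0.95 and 0.66, then 0.31 and 0.02. Spire1 (fitted change 0.47), an actin nucleator, and Xpc (0.41), the damage sensor of nucleotide excision repair, had the same order. Without day 14 replicate 1 the fitted changes of the 5 lay between 0.15 and 0.23. Of all genes, 12.2% were lower and 18.3% higher in all 4 comparisons, and the median gene stood at 0.13 in replicate 1 and at -0.01 and 0.00 in replicate 2 under this scaling.

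The genes whose guides are described most fully lie, in RefSeq's annotation of GRCh38.p14, at chromosome 11, 61792911 to 61797238 (FEN1), chromosome 15, 58987663 to 59097419 (RNF111), chromosome 1, 35176380 to 35193145 (SFPQ), chromosome 3, 142449235 to 142578733 (ATR), chromosome 4, 184649738 to 184694952 (PRIMPOL) and chromosome X, 24693918 to 24996986 (POLA1). Human symbols in current use were found for 445 of the 459 names and older ones for 9. The sites of the guides within these genes were not used here.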

How the data were processed

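Genomic DNA was amplified by PCR over the guide locus and sequenced, per the labels' protocols. The deposited values are raw read counts per guide pair, per the file headers, and pairs not listed in a library were set to 0. In each library 0 pairs differed between its own and the combined table. HISAT2 2.1.0 and hg38 are named, without a role, in the submitters' processing notes. The sources used here do not give the step that assigned reads to guides. The combined tables hold 2 columns that match no sample, and these were not used. Groups and replicate numbers came from the sample titles. Nothing in the labels says that replicates were separate cultures, so p-values measure only the spread between these samples, which may be technical. PCR reads carry no molecular identifiers.

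Counts were summed per guide and per gene over all partners (mean count of at least 2000, TMM scaling, within each position for guides) and per gene over non-targeting partners (mean count of at least 20, scaled by the total of constructs in which both guides were non-targeting). The test was edgeR 4.0.16's quasi-likelihood test (R 4.3.3), two-sided, with all 6 libraries in 1 fit, Benjamini-Hochberg adjustment over all features and a threshold of 0.05. DESeq2 1.42.0, other scalings, no minimum count, the 4 libraries alone, a replicate block, leaving out libraries, pairs with reads in all 4 libraries, medians over partners and each position alone were alternatives. Values of guide pairs used log2 of CPM plus 0.5. The median 95% half-width was 0.20 for guides and 0.14 for genes (log2). Tested on simulated data for day 14 against day 0, the guide test over 1849 guides recovered 73% of changes of 0.5 and 100% of 1.0 on the log2 scale, and the gene-sum test over 459 genes 100% of both. The single-knockout test over 459 genes recovered 41% and 99%. Of unchanged features, 9 of 1649 guides, 3 of 259 gene sums and 3 of 259 single knockouts were called. The simulated counts had 1 spread shared by all features, and no library with missing pairs or shifted guides. These shares need not hold for the data themselves.

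By the naming rule the text gives features that passed, or else the 5 with the smallest p, the 6 lowest and 6 highest gene sums of 1 sign in all 4 comparisons, at most 3 genes per list by p, a fixed set of replication and repair genes, the 5 genes with the highest and lowest lost share and the 5 most abundant pairs per day 14 library. The gene lists and this set were chosen with earlier results of these data known, and the guides beyond 0.2 in all 4 comparisons, the single knockouts of Chek1, Sfpq, Pola1, Rnf111, Fen1 and Atr, and the pairs past a fold after their values were seen. Guide sequences were not used here, and some genes that the rule names are not reported here.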

Additional observations from a re-analysis of the deposited data

How the results depend on the processing

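The number of guides called was 0 in edgeR's fit of all libraries and 24 with DESeq2. It ran from 0 to 313 when 1 library was left out, with 3 without day 0 replicate 1, 313 without day 0 replicate 2 and 0 without either day 14 library. With each position fitted on its own, it was 2, then 3 and 337 without day 0 replicates 1 and 2, and 1 without either day 14 library. The number of gene sums called was 0, against 2 with DESeq2, 2 from position 1 guides, and 0 to 168 with 1 library left out, the 168 without day 0 replicate 2. For single knockouts it was 0, with 0 to 21 when 1 library was left out, the 21 without day 14 replicate 2, and 1, Ssrp1, higher, without both incomplete libraries (day 14 replicate 1 and irradiated replicate 2). The other settings also gave 0 calls. With libraries scaled on non-targeting constructs, 9 guides were lower by at least 0.2 in all 4 comparisons and 0 were higher. Asking for at least 50 reads at day 0 gave lost shares of 35.0% and 0.0176% in day 14 replicates 1 and 2, and counting pairs with at most 2 reads as lost gave 57.1% and 1.13%.

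Some values changed sign under an alternative, and the cause was not tested. With guide pairs that had reads in all 4 libraries, a choice that drops pairs lost at day 14, these were Atr_sg2 at 0.019, Fancg_sg2 at 0.30, Rpa2_sg3 at 0.28, Abl1_sg3 at 0.0020, Polr2i_sg3 at 0.014, Nsmce4a at -0.048, Chek1 at 0.086, Brca2 at -0.070 and Huwe1 at -0.059. Medians over partners, which gave values for 746 guides and 156 genes, put Huwe1_sg1 at 0.093, Topbp1_sg2 at 0.15 and Rnf111 at 0.014. Scaling on non-targeting constructs put Topbp1 at 8.66e-05, Chek1 at 0.061, Rpa1 at 0.045 and Atm at 0.064. Position 1 guides put Nudt1 at -0.014, Msh5 at -0.037, Sycp3 at -0.021, Chek1 at 0.067, Atm at 0.0098, Trp53 at -0.015 and Huwe1 at -0.30. Position 2 guides put Topbp1 at 0.060, Atr at 0.017, Nsmce4a at -0.060, Rpa1 at 0.013 and Brca2 at -0.047. Leaving out both incomplete libraries put Chek1 at 0.020, Brca2 at -0.011, Atm at 0.0082 and the single knockout of Rnf111 at -0.37. The single knockout of Rnf111 was at -0.037 with DESeq2's size factors and at -0.036 with TMM scaling. With 1 library left out, values ran from -0.033 to 0.024 for Chek1, from -0.036 to 0.059 for Brca2, from -0.033 to 0.028 for Atm, from -0.37 to 0.35 for the single knockout of Rnf111 and from -0.094 to 0.37 for Huwe1.

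With the replicate number as a block, edgeR called 0 guides, 0 genes and 0 single knockouts, with 48, 15 and 1 at an unadjusted p below 0.05. The labels do not say that the numbers pair the samples. The deviations of same-numbered day 0 and day 14 libraries correlated at 0.181 and -0.096 over guides of positions 1 and 2. They did so at -0.109 over gene sums and at 0.131 over single knockouts. For day 14 and irradiated libraries the values were -0.539 and -0.615 over guides, -0.667 over gene sums and -0.537 over single knockouts. Day 14 replicate 1 thus deviated in the same direction as irradiated replicate 2, while the main fit took all 6 libraries as independent. The cause was not tested. With the numbers crossed, an alternative chosen after seeing the data, 0 genes were called and 50 had an unadjusted p below 0.05.

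Guides and genes entered with a mean of at least 2000 reads per library, and with 2 libraries per group the median 95% half-widths were 0.20 for guides, 0.14 for genes and 0.40 for single knockouts on the log2 scale. For single pairs, day 14 replicate 1 gave no value in 54.1% of cases.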
